A study of Mus musculus with 34 samples.

Results

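The genes described here encode the proteasome, its assembly factors and its activators. They are rows of the deposited expression table whose symbol starts with Psm, a letter from a to g and a digit. The 46 rows kept had a mean over the 6 libraries of at least 0.5 FPKM. FPKM are sequenced fragments per kilobase of exon, scaled to a size set for each library. The name pattern matched 50 of the 22040 rows, and 12305 rows passed the same minimum. Of the 46 genes, 45 encode proteasome parts or factors. The exception is Psmc3ip, a cofactor of meiotic recombination that shares only the start of its symbol.

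RNA-seq was performed on E11.5 mouse limb buds from 3 WT and 3 CKO biological replicates, to ask which mRNAs differ when Hnrnpk, an RNA- and DNA-binding protein, is removed from the limb. CKO embryos carried Prrx1-Cre and floxed Hnrnpk alleles (Prrx1-Cre;Hnrnpk fl/fl), whereas the control libraries are labelled Hnrnpk WT, and whether these embryos carried Cre or a floxed allele is not given in the sources used here. Embryos of both sexes were used. Prrx1-Cre acts in limb mesenchyme and not in the apical ectodermal ridge, and its activity in the hindlimb is incomplete. Because whole buds were sequenced, fewer cells of a type and less RNA per cell cannot be told apart.

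The proteasome is the protease that degrades ubiquitin-tagged proteins in the cytosol and the nucleus. Its core particle is a barrel of stacked rings in which the inner beta rings carry the proteolytic sites and the outer alpha rings form a gated entrance. A regulatory particle docks on the alpha ring: a ring of ATPases unfolds the substrate and feeds it into the barrel, and the other regulatory subunits bind and cut off the ubiquitin chain. Dedicated chaperones assemble the core and the base, alternative activators can dock in place of the regulatory particle, and the transcription factor Nfe2l1 raises proteasome genes when proteasome activity is short.

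Proteasome mRNAs were abundant in the limb bud. Mean FPKM ran from 1.99 for Psmg3 to 159 for Psmb1 with a median of 47.0, and 42 of the 46 genes had a mean above 10. By replicate number, the 46 genes made up 0.724%, 0.801% and 0.726% of the summed FPKM in WT and 0.736%, 0.701% and 0.780% in CKO. No gene of the set passed the test between CKO and WT limb buds. Measured per gene, 41 of 46 had a higher mean log2 level in CKO, with a median difference of 0.17 on the log2 scale, or 1.12-fold. The differences between libraries of the same genotype were larger: replicates 2 and 3 lay above replicate 1 by a median of 1.19-fold in WT and 1.49-fold in CKO.

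Promoters of the set are shown for 3 genes, since the levels of the set varied together from library to library and 2 of the genes encode proteolytic subunits. Each window runs from 250 bases before to 50 bases after the annotated start (RefSeq, GRCm38.p6, 300 bases, printed 5′ to 3′ on the gene's strand). Capitals mark matches on either strand to the antioxidant response element bound by Nfe2l1 and Nfe2l2, searched as TGACNNNGC and TGAGNNNGC, and to the CCAAT box bound by NF-Y, which reads ATTGG on the other strand. The Psmb5 window lies at chr14:54617946-54618245 on the minus strand, that of Psmb6 at chr11:70525107-70525406 on the plus strand and that of Psma3 at chr12:70974373-70974672 on the plus strand.
Psmb5: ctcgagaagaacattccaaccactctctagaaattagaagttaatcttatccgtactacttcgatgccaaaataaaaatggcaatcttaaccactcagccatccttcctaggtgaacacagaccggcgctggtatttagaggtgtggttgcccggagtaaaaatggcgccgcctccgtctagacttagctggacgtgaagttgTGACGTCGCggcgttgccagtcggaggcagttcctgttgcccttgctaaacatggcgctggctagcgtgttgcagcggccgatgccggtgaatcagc
Psmb6: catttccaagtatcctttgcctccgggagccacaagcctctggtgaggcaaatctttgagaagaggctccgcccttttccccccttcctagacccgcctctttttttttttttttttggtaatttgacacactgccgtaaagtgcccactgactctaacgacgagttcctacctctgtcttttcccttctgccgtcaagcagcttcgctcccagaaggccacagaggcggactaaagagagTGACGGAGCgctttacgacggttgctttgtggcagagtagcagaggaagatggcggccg
Psma3: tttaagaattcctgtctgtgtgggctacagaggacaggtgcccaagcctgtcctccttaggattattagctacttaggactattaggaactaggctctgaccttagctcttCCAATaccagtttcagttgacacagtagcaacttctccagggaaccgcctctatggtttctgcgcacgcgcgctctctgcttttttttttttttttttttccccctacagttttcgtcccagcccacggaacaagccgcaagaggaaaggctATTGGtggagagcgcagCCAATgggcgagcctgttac
The Psmb5 and Psmb6 windows each hold 1 match to TGACNNNGC, and the Psma3 window holds 3 CCAAT matches and neither response element. Promoter windows were listed for 39 of the 46 genes. TGACNNNGC or TGAGNNNGC occurred in 17 of these 39 (43.6%), beside 35.6% of the tested genes' promoters and 30.8% of all promoters of the same length. The form in the Psmb5 and Psmb6 windows, TGACNNNGC, occurred in 6 of the 39 (15.4%), beside 17.0% of the tested genes' and 14.0% of all promoters, and TGAGNNNGC in 13 (33.3%), beside 23% and 19.8%. CCAAT occurred in 13 of the 39 (33.3%), beside 43.2% and 41.1%. The median log2 difference between CKO and WT was 0.20 for the 17 genes with a response element match and 0.17 for the 22 without. A match describes letters in the window and is not a measured site.

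The recombined gene was checked first. Hnrnpk had 193, 195 and 185 FPKM in the WT libraries and 127, 142 and 135 FPKM in the CKO libraries, so the groups did not overlap. The means were 191 ± 5.0 in WT and 135 ± 7.48 in CKO (SD, n = 3). The log2 difference was −0.50 (SE 0.127) with a limma adjusted p of 0.334, an adjusted p of 0.0575 with the replicate number as a block, and an exact two-sided permutation p of 0.1, the smallest that 3 against 3 libraries allow. The values are per gene, so exons and cell types of the bud cannot be told apart in the FPKM that remained.

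The libraries held 17140887 to 24624444 reads on the listed genes, recovered from the FPKM and exon lengths, and the proteasome genes had at least 67 reads in every library. All 11 limb mesenchyme markers checked passed the minimum, and their summed FPKM was 447 to 522 in WT and 443 to 490 in CKO. Measured per gene, 8 of the 11 were lower and 3 higher in CKO, with a median log2 difference of −0.16. Tbx5, named after its values were seen, fell most. Its log2 difference was −0.93 (limma adjusted p = 0.358, or 0.00734 with the replicate block). Erythroid mRNA varied far more between libraries than the summed mesenchyme markers. Globin genes made up 13.7%, 19.5% and 20.6% of the summed FPKM in the WT libraries, in the order of their replicate numbers, and 11.7%, 32.4% and 23.5% in the CKO libraries. The 13 erythroid markers in the table summed to between 38032 and 64273 FPKM in WT and between 31048 and 143414 FPKM in CKO. Summed FPKM in WT and CKO was 26.8 to 32.5 and 26.3 to 40.4 for macrophage markers, 23.6 to 33.2 and 16.5 to 26.4 for endothelial markers, 34.9 to 61.9 and 41.7 to 63.6 for ectodermal markers, 12.4 to 45.8 and 30.3 to 64.8 for muscle markers, and 5.94 to 9.13 and 6.70 to 8.03 for neural markers. None of these markers was at 0 in every library, but 2 macrophage markers, 1 muscle marker and 3 neural markers fell under the minimum.

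**Figure D1:**
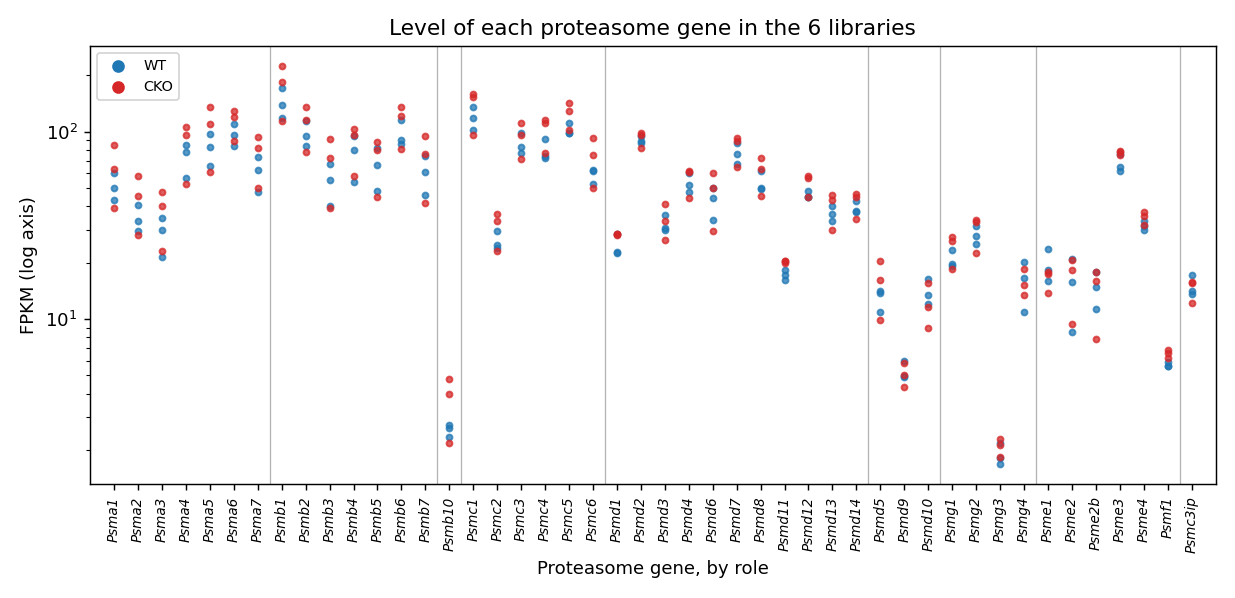
FPKM of each of the 46 genes (log axis) in the 3 WT libraries (blue) and the 3 CKO libraries (red), with genes ordered by role and vertical lines between roles. Most genes lie between 10 and 200 FPKM, Psmb10, Psmg3, Psmd9 and Psmf1 lie lower, and blue and red points overlap for every gene but Psmd11 and Psmf1.

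The 7 constitutive alpha subunits form the outer rings of the core. Their mean FPKM ran from 32.8 for Psma3 to 104 for Psma6, a 3.19-fold range, and all 7 had a higher mean log2 level in CKO, with a median difference of 0.26, or 1.2-fold. None passed the test by limma (adjusted p under 0.05), beside 0.0569% of all 12305 tested genes called higher and 0.00813% called lower, and the smallest adjusted p in the group was 0.837. Psma3 had 21.4, 34.7 and 29.7 FPKM in WT and 23.1, 47.8 and 40.0 FPKM in CKO. Its replicate 1 was lowest in both genotypes, and CKO replicate 1 lay below WT replicates 2 and 3. The log2 difference was 0.33 (SE 0.290, limma adjusted p = 0.837, or 0.131 with the replicate block, the smallest blocked value of the set). Psma2 had 29.3, 40.8 and 33.4 FPKM in WT and 28.02, 58.2 and 45.5 FPKM in CKO, with a log2 difference of 0.30 (SE 0.264). Psma6, the most abundant alpha subunit, had 83.6, 110 and 95.8 FPKM in WT and 88.7, 120 and 128 FPKM in CKO, with a log2 difference of 0.21 (SE 0.184). For Psma2 and Psma6, as for Psma3, the genotypes overlapped because CKO replicate 1 fell among or below the WT libraries. Psma8, the testis counterpart of Psma7, averaged 0.444 FPKM (13 to 28 reads per library), just under the minimum, and was not tested. The lowest genes above it were Psmg3 at 1.99 and Psmb10 at 3.10 FPKM.

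Among the 7 constitutive beta subunits, mean FPKM ran from 61.1 for Psmb3 to 159 for Psmb1, a 2.60-fold range. All 7 had a higher mean log2 level in CKO, with a median of 0.17 that turned to −0.03 with erythroid level as a covariate, and none passed the limma test. The proteolytic subunits are Psmb5 (chymotrypsin-like site), Psmb6 (caspase-like site) and Psmb7 (trypsin-like site). Psmb5 had 48.2, 82.0 and 66.0 FPKM in WT and 44.7, 88.2 and 80.3 FPKM in CKO, with a log2 difference of 0.09 (SE 0.293) that changed sign under 5 alternatives besides the left-out libraries. Psmb6 had 85.7, 115 and 90.1 FPKM in WT and 80.5, 135 and 122 FPKM in CKO, with a log2 difference of 0.19 (SE 0.222). Psmb7 had 46.1, 74.1 and 60.9 FPKM in WT and 41.6, 94.4 and 76.0 FPKM in CKO, with a log2 difference of 0.17 (SE 0.311), or −0.07 with the erythroid covariate. In all 3, CKO replicate 1 was the lowest and CKO replicate 2 the highest of the 6 libraries. The structural subunits Psmb1 and Psmb3 had the same lowest and highest libraries. Psmb1 had 119, 170 and 140 FPKM in WT and 114, 225 and 185 FPKM in CKO. Psmb3 had 40.3, 67.3 and 55.1 FPKM in WT and 39.0, 92.0 and 72.7 FPKM in CKO. Their log2 differences were 0.25 (SE 0.264) and 0.27 (SE 0.325), and the highest library of Psmb3 stood 2.36-fold above the lowest.

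Of the inducible beta subunits, which replace the constitutive ones in immune and interferon-exposed cells, only Psmb10 passed the minimum. Psmb10 (chr8:105935735-105938444 in mm10), the counterpart of Psmb7, had 2.64, 2.72 and 2.34 FPKM in WT and 2.17, 4.78 and 3.98 FPKM in CKO, from 67 to 162 reads per library. WT libraries lay close together, whereas CKO replicate 1 was the lowest of the 6 and CKO replicates 2 and 3 the highest. Its log2 difference of 0.42 was the largest of the set (1.34-fold, SE 0.272, limma adjusted p = 0.748, 95% interval −0.21 to 1.05). Psmb8 and Psmb9, the counterparts of Psmb5 and Psmb6, averaged 0.159 FPKM (2 to 22 reads) and 0.136 FPKM (7 to 16 reads), and the thymus subunit Psmb11 averaged 0.0507 FPKM (1 to 7 reads). Psmb5 averaged 68.3 FPKM, from 728 to 1765 reads per library.

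**Figure D2:**
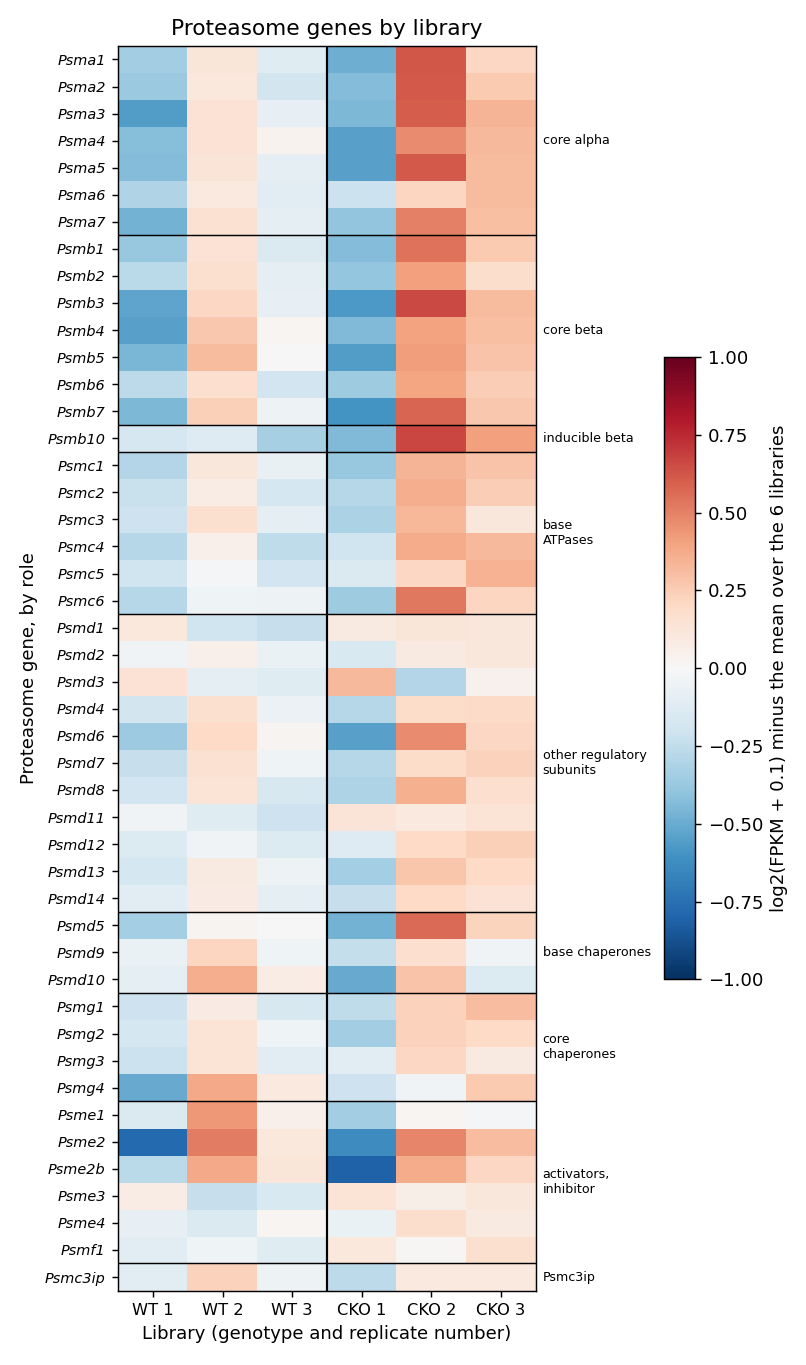
Log2(FPKM + 0.1) of each gene minus its mean over the 6 libraries (red above, blue below), with genes in rows by role and libraries in columns. Core alpha and beta rows are blue in WT 1 and CKO 1 and red in CKO 2 and CKO 3, and most other regulatory subunits, but not Psmd1, Psmd3 and Psmd11, show a weaker form of it.

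All 6 ATPases of the regulatory particle had a higher mean log2 level in CKO, with a median of 0.24 (1.18-fold), and none passed the limma test. Mean FPKM ran from 28.4 for Psmc2 to 127 for Psmc1, whose protein opens the gate of the core. Psmc4 had 72.8, 91.9 and 74.5 FPKM in WT and 77.2, 115 and 111 FPKM in CKO. Psmc5 had 97.8, 111 and 98.5 FPKM in WT and 102, 130 and 143 FPKM in CKO. For both ATPases CKO replicates 2 and 3 were the highest libraries and CKO replicate 1 lay within the WT range. Log2 differences were 0.33 (SE 0.189, limma adjusted p = 0.714) for Psmc4 and 0.27 (SE 0.161, limma adjusted p = 0.721) for Psmc5. Psmc1 had 102, 136 and 119 FPKM in WT and 96.2, 159 and 153 FPKM in CKO (log2 difference 0.16, SE 0.221). Psmc2 had 23.96, 29.5 and 24.8 FPKM in WT and 22.9, 36.2 and 33.3 FPKM in CKO (log2 difference 0.22, SE 0.188).

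The 11 other regulatory subunits include ubiquitin receptors, though not Adrm1, which the name pattern misses, and the deubiquitinase of the lid. They had the lowest median log2 difference of the structural groups, 0.09, which was −0.01 after rescaling without erythroid genes. That rescaling also lowered the median of all tested genes, as given below. All 11 had a higher mean log2 level in CKO as deposited, and none passed the test. Psmd11 (chr11:80428615-80473248 in mm10), a lid subunit that clamps the regulatory particle to the core, had 18.2, 17.2 and 16.2 FPKM in WT and 20.4, 20.0 and 20.5 FPKM in CKO. It was 1 of 2 genes of the set whose groups did not overlap, and its replicate 1 was not low in either genotype. The means were 17.2 ± 1.0 in WT and 20.3 ± 0.269 in CKO (SD, n = 3). The log2 difference was 0.24 (1.18-fold, SE 0.105), with an unadjusted p of 0.0522 and an adjusted p of 0.601 by limma, the smallest of the set. Psmd2, the most abundant gene of this group and a docking subunit for ubiquitin shuttles, had 88.8, 94.3 and 87.0 FPKM in WT and 81.8, 96.6 and 98.2 FPKM in CKO. Its log2 difference was 0.03 (SE 0.129, 95% interval −0.27 to 0.33), and its libraries spanned 1.2-fold, the narrowest spread of the set.

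The other gene without overlap was Psmf1 (chr2:151715812-151744186 in mm10), an inhibitor and transport factor of the core particle. It had 5.64, 5.93 and 5.62 FPKM in WT and 6.60, 6.17 and 6.86 FPKM in CKO, with a log2 difference of 0.19 (SE 0.111, limma adjusted p = 0.721). Both genes were higher in CKO. A count of 2 of 46 (4.35%) without overlap stood beside 14.5% of all tested genes, of which 5.63% were higher and 8.86% lower in CKO. No gene of the set passed the study's criterion of a fold over 2 or under 0.5 with an unadjusted p under 0.05, which 0.666% of tested genes met in this fit.

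The 7 base and core chaperones had mean levels between 1.99 and 28.9 FPKM, and the 6 activators and inhibitors between 6.13 and 72.3 FPKM. None of these 13 genes passed the test. The activator genes Psme1 and Psme2 encode the interferon-inducible ring that docks on the core, Psme3 a nuclear ring of the same family, and Psme4 a large monomeric activator. Psme1 had 15.9, 23.8 and 18.2 FPKM in WT and 13.8, 17.9 and 17.4 FPKM in CKO, with a log2 difference of −0.22 (SE 0.178, limma adjusted p = 0.812). Psme3 had 76.0, 61.5 and 64.7 FPKM in WT and 79.03, 75.005 and 77.8 FPKM in CKO, with a log2 difference of 0.20 (SE 0.128). Thus CKO was lower than WT under each replicate number for Psme1 and higher under each for Psme3, yet neither passed the test and WT replicate 1 overlapped the CKO range of Psme3. Psme2b, a retrocopy of Psme2, had 11.3, 17.9 and 14.9 FPKM in WT and 7.79, 17.8 and 15.9 FPKM in CKO (log2 difference −0.15, SE 0.316). Of its 50-base stretches, 69.3% also occur in transcripts of other genes, mostly of Psme2, so reads of this pair are uncertain.

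The base chaperones Psmd5, Psmd9 and Psmd10 and the core chaperones Psmg1 to Psmg4 assemble the particle and leave it. Psmd10, also known as gankyrin, had 12.0, 16.4 and 13.4 FPKM in WT and 8.95, 15.6 and 11.6 FPKM in CKO, lower under each replicate number but overlapping. Its log2 difference of −0.23 was the lowest of the set (SE 0.215, limma adjusted p = 0.838). Psmd9 had 4.91, 5.98 and 4.97 FPKM in WT and 4.34, 5.79 and 5.004 FPKM in CKO, with a log2 difference of −0.07 (SE 0.152), and 25.5% of its exon bases lie opposite a long noncoding RNA. Psmd5 had 10.9, 14.1 and 13.8 FPKM in WT and 9.94, 20.5 and 16.1 FPKM in CKO, with a log2 difference of 0.21 (SE 0.256). Among the 4 core chaperones the median log2 difference was 0.09, or −0.01 after the rescaling, which lowered the median of all tested genes too. Psmg2, the highest of them, had 25.3, 31.5 and 27.8 FPKM in WT and 22.5, 33.6 and 32.8 FPKM in CKO. Psmg3, the lowest gene of the set, had 1.69, 2.18 and 1.82 FPKM in WT and 1.83, 2.29 and 2.12 FPKM in CKO. Psmc3ip had 13.5, 17.2 and 14.1 FPKM in WT and 12.2, 15.6 and 15.7 FPKM in CKO (log2 difference −0.04, SE 0.151).

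Across all 46 genes, 41 had a higher mean log2 level in CKO (89.1%), beside 50.9% of all tested genes. The median log2 difference was 0.17 against 0.00479 over all tested genes, and the range was −0.23 to 0.42. No gene of the set reached an adjusted p under 0.05 by limma, and none reached an unadjusted p under 0.05, beside 8.31% of all tested genes. The 95% interval of the difference held 0 for all 46 genes and lay within −1 and 1 on the log2 scale for 42 of them, with extremes of −0.88 and 1.05. With the replicate number as a block, again no gene of the set was called, beside 1.13% of tested genes called higher and 1.68% called lower, and 6 of 46 reached an unadjusted p under 0.05 (13.0%, against 18.4% of tested genes). All 6 were higher in CKO. The median was 0.36 without CKO replicate 1 and 0.02 without CKO replicate 2, so these libraries set much of its size.

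**Figure D3:**
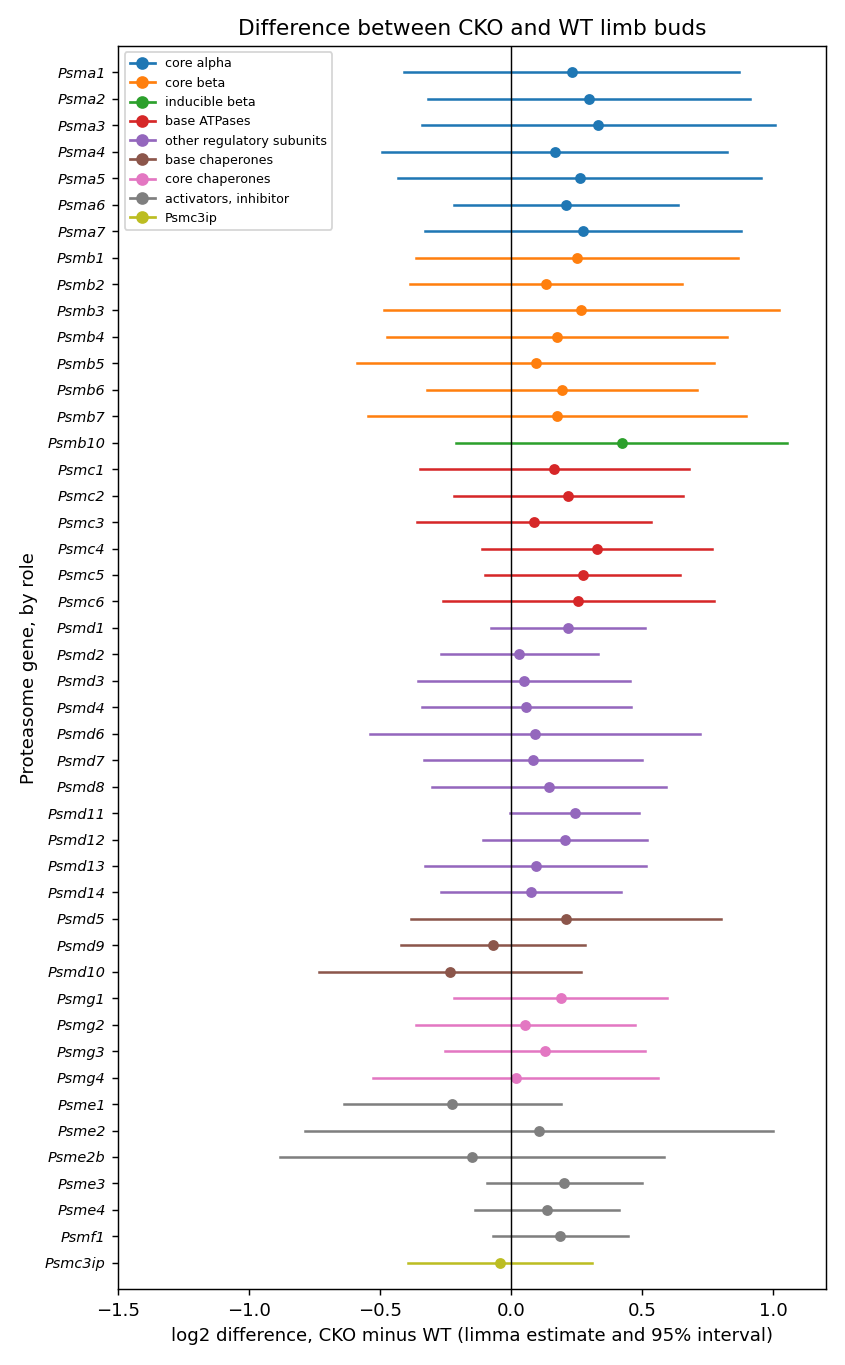
Limma estimate of the log2 difference between CKO and WT (points) with its 95% interval (lines) for each gene, coloured by role, and a vertical line at 0. Points lie to the right of 0 for 41 of 46 genes as deposited (30 after rescaling without erythroid genes), and every interval crosses 0. The rescaling also lowered the median of all tested genes.

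Libraries differed in proteasome level as a set. The median deviation of the 46 genes from their own mean over the 6 libraries was −0.23, 0.13 and −0.09 on the log2 scale for the WT libraries, by replicate number, and −0.34, 0.34 and 0.22 for the CKO libraries. The same median over all tested genes stayed between −0.02 and 0.01. CKO replicate 1 held the lowest value of 30 genes and CKO replicate 2 the highest value of 28. Under replicate number 1, CKO exceeded WT in 15 of 46 genes with a median log2 difference of −0.08, under number 2 in 38 genes with a median of 0.22, and under number 3 in 44 genes with a median of 0.28. In size, the difference of replicates 2 and 3 from replicate 1 exceeded that of CKO from WT in 39 of 46 genes. Replicates 2 and 3 averaged above replicate 1 in both genotypes for 40 genes and below it in both for 3. For the 14 core subunits the step was 0.48 in WT and 0.89 in CKO on the log2 scale, against 0.10 and 0.41 for the 11 regulatory subunits other than ATPases and 0.02 and 0.01 for all tested genes.

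**Figure D4:**
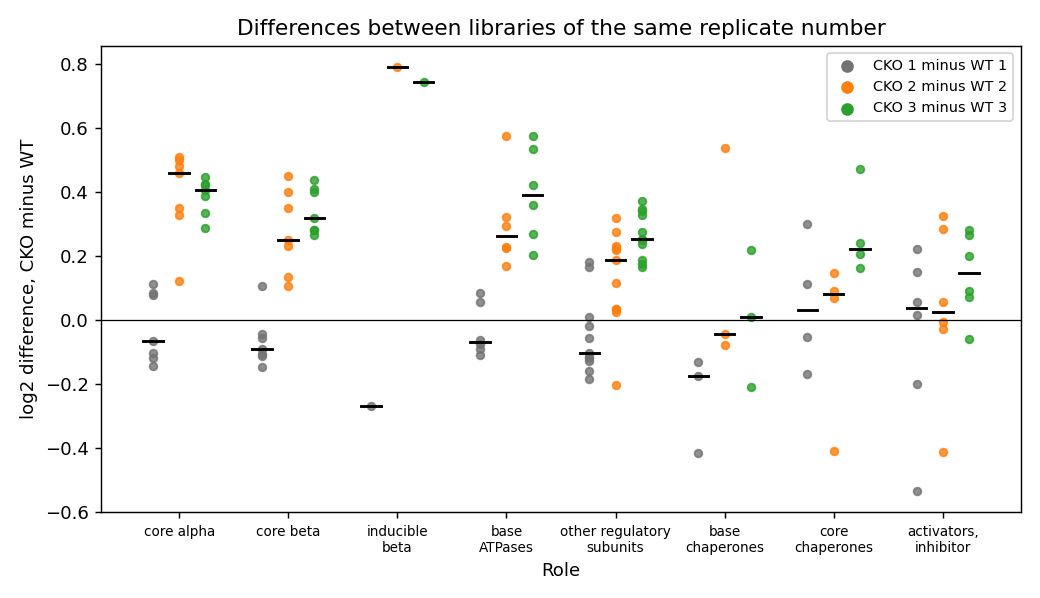
Log2 difference between the CKO and WT libraries of the same replicate number for each gene (points), grouped by role, with the median of each role as a black bar (Psmc3ip left out). For core subunits and ATPases, most points of number 1 lie near or below 0, and all points of numbers 2 and 3 lie above 0.

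With replicates 2 and 3 alone, 9 of 46 genes were called higher in CKO by limma and none lower, beside 7.05% of tested genes called higher and 8.0% called lower, and 21 of 46 reached an unadjusted p under 0.05 against 29.0%. The 9 were the alpha subunits Psma1, Psma2, Psma3 and Psma5, the beta subunits Psmb3 and Psmb10, the ATPases Psmc4 and Psmc6, and the chaperone Psmd5. Psma1, Psma5 and Psmc6 are named here after their values were seen. Psmb10 had the largest difference, 0.77 on the log2 scale (adjusted p = 0.000472 by limma). The limma adjusted p of the other 8 lay between 0.018 and 0.0473, and that of each of the 9 reached 0.99995 under at least 1 alternative. The other genes of the set and Hnrnpk reached that value too, so it does not single out these 9. Each rests on 2 libraries per genotype, and in replicate 1 only Psma3 and Psmc4 were higher in CKO than in WT. This subset leaves out replicate number 1, under which CKO exceeded WT in 15 of 46 genes. Calls made in it are therefore no support for a difference between the genotypes.

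The set's level moved with the globin share of the mRNA, and also with muscle and ectodermal markers. The libraries with the lowest globin share, CKO replicate 1 and WT replicate 1, had the lowest proteasome medians, and those with the highest, CKO replicates 2 and 3, had the highest. WT replicates 2 and 3 had close globin shares, 19.5% and 20.6%, and proteasome medians of 0.13 and −0.09. Muscle markers summed to 12.4, 45.8 and 42.7 FPKM in the WT libraries and 30.3, 64.8 and 52.1 FPKM in the CKO libraries, and ectodermal markers to 34.9, 53.6 and 61.9 FPKM and 41.7, 63.6 and 62.9 FPKM. Both lists were lowest in the replicate 1 libraries and highest in CKO replicates 2 and 3, the muscle list with WT replicate 2 above WT replicate 3 like the proteasome medians, and their part in the set's level was not tested. With the summed erythroid level as a covariate in the limma fit, a model chosen after seeing the data, the median log2 difference of the 46 genes was 0.01 and 26 of 46 had a positive estimate, beside 49.0% of tested genes. No gene of the set was called in that fit, beside 0.309% of tested genes called higher and 0.447% called lower. In the same limma fit 5 reached an unadjusted p under 0.05 against 18.8%. Of these, Psme1, Psme2b and Psmd10 were lower in CKO, and Psme3 and Psmd11 were higher. After rescaling the libraries to their FPKM outside the erythroid list, the median was 0.06 with 30 of 46 higher, while that of all tested genes moved to −0.10. As a share of FPKM outside the globin genes, the 46 genes made up 0.839%, 0.995% and 0.914% in WT and 0.833%, 1.04% and 1.02% in CKO. Erythroid cells express proteasome genes themselves, and their part in these values was not tested beyond this covariate and rescaling.

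**Figure D5:**
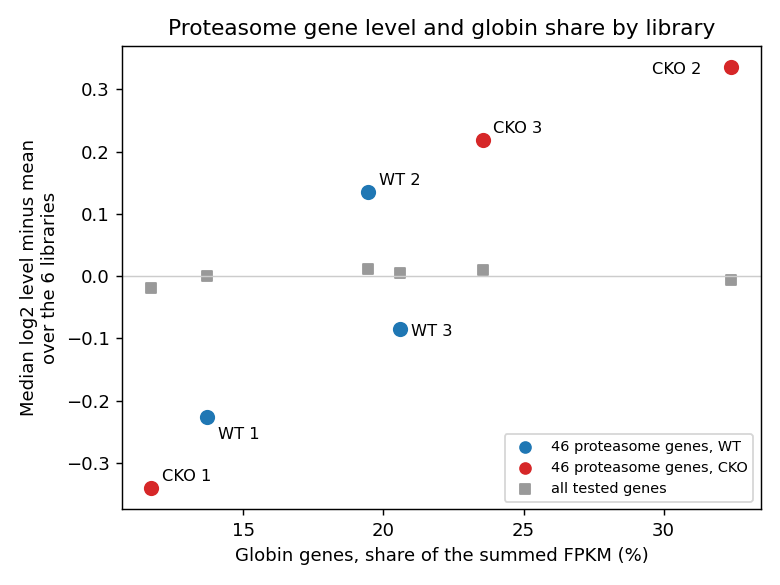
Median log2 level of the 46 genes in each library, each gene taken relative to its mean over the 6 libraries (circles, WT blue and CKO red), and the same for all tested genes (grey squares), against the globin share of the summed FPKM in percent. Circles rise from −0.34 at 11.7% to 0.34 at 32.4%, with WT 3 below WT 2, and squares stay near 0.

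Genes that work with the proteasome were described from a list of 44 tested genes. None passed the limma test, 33 had a higher mean log2 level in CKO, and the median difference was 0.10. The medians were 0.12 for 11 partners of the particle, 0.06 for 10 ubiquitin shuttles and segregase factors, 0.07 for 6 ubiquitin and ubiquitin-activating genes, 0.23 for 8 genes of proteotoxic stress and 0.04 for 7 interferon and antigen-presentation genes. Nfe2l1 had 25.5, 21.5 and 23.8 FPKM in WT and 26.8, 21.0 and 23.1 FPKM in CKO, with a log2 difference of −0.0017 (SE 0.134) that was 0.01 after median-ratio scaling. Nfe2l2, which drives antioxidant genes, had 12.3, 10.1 and 10.2 FPKM in WT and 10.8, 14.5 and 12.0 FPKM in CKO (log2 difference 0.19, SE 0.150). Hspa1a, a heat-inducible chaperone, had 1.36, 0.620 and 0.340 FPKM in WT and 3.61, 1.003 and 0.890 FPKM in CKO. It was higher in CKO under each number and was called only with the replicate number in the model or replicate 1 left out (log2 difference 1.04, limma adjusted p = 0.0214 with the block and 0.710 without, range over alternatives 0.00908 to 0.99995). Hspa1a and Hspa1b are near-identical copies, so the split of reads between them is uncertain.

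The 46 genes lie on 16 chromosomes, with 10 on chromosome 11, 6 on chromosome 2 and 5 on chromosome 14. Shared sequence limits some of the values. In 9 of the 46 genes over 10% of the 50-base stretches occur in transcripts of another gene, among them Psmb5 (54.1%), Psmb3 (17.8%), Psmd2 (17.8%), Psma3 (15.4%) and Psmc1 (14.1%), mostly in processed copies. Exon bases are shared with another gene in 13 of the 46, including 21.2% of Psmc3ip and 11.8% of Psmb7.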

How the data were processed

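RNA-seq of E11.5 limb buds (3 WT and 3 CKO libraries) was analysed, and the other assays among the 34 samples were not analysed here. The deposited values are FPKM per gene, made by the authors from a stranded mRNA library kit, with mm10 as build and cutadapt 2.5, HISAT2 2.1.0 and featureCounts 1.6.3 among the tools of the submitters' processing notes. Multiplying FPKM by GENCODE vM21 exon length and a library size inferred from the smallest values gave whole reads. This held within 0.1 read for 93.3% to 93.7% of values tested. The ratio of reads on listed genes to that size was 0.955, 0.968 and 0.957 in WT and 0.947, 1.107 and 1.033 in CKO. Relative to their reads, CKO replicates 2 and 3 were thus divided by the smallest sizes. The part of this scaling in the deposited differences was not tested. Voom, which takes sizes from the reads, called 8 genes higher and 1 lower in CKO, none of them a proteasome gene.

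Genes with a mean of at least 0.5 FPKM (12305) were fitted as log2(FPKM + 0.1) by limma 3.58.1 (R 4.3.3, trended eBayes), with Benjamini-Hochberg adjustment over every fitted gene. Fold changes are on the log2(value + pseudocount) scale, which understates low genes. The script was tested on simulated data. Deviations of WT and CKO libraries from their group means correlated across genes at 0.64, 0.44 and 0.27 for the same replicate number, each over 0.1, so the number was used as a block. Pairs with different numbers were not always lower: WT 2 with CKO 3 reached 0.49 and WT 3 with CKO 2 reached 0.31, whereas pairs of a replicate 1 with a replicate 2 or 3 lay between −0.60 and −0.37. The correlations thus set replicate 1 apart from 2 and 3 and do not match 2 and 3 number by number, and the labels do not say what a number shares. The p-values measure the spread between these libraries.

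The members and lists were chosen with earlier results of these data known. Genes were named if called in the fit with or without the replicate block, if among the 5 largest rises or falls, if their groups did not overlap, if catalytic, if highest or lowest of their role, or if regulators or called companions, and Hnrnpk. Alternatives were pseudocount, filter, scaling, replicate block, voom on recovered reads, left-out libraries and replicates 2 and 3 alone.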

Additional observations from a re-analysis of the deposited data

How the results depend on the processing

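No proteasome gene was called in either direction under any alternative except replicates 2 and 3 alone, where 9 were called higher in CKO. That subset leaves out replicate number 1, under which 15 of 46 genes were higher in CKO. With limma, 0 genes of the set reached an unadjusted p under 0.05, beside 1 without a filter or after median-ratio scaling, 6 with the replicate block, 3 with voom and the block, 21 with replicates 2 and 3 alone and 5 with the erythroid covariate, which was added after seeing the data. Leaving out 1 library at a time gave a median log2 difference of 0.02 to 0.36 for the set, no call, and 0 to 21 genes at an unadjusted p under 0.05, the 21 without CKO replicate 1. The median was 0.08 after quantile normalization, 0.06 after rescaling without erythroid genes and 0.07 with voom. Rescaling lowered the median of all tested genes as well. Voom sets new library sizes, which moves every gene of a library by about the same amount. The shift with voom is thus not particular to the set.

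Over all tested genes, the number called higher moved from 7 to 13 (quantile normalization), 4 (rescaling without erythroid genes), 139 (replicate block), 112 (voom and block), 867 (replicates 2 and 3 alone) and 38 (erythroid covariate), and to between 1 and 10 without 1 library. The number called lower moved from 1 to 0 (no filter and rescaling), 207 (block), 668 (voom and block), 984 (replicates 2 and 3 alone) and 55 (covariate), and to between 0 and 13 without 1 library. Hnrnpk passed the threshold at −0.60 with voom and the block (adjusted p = 0.00194 by limma voom), −0.45 with replicates 2 and 3 alone (limma 0.0377) and −0.53 with the covariate (limma 0.0358), within a range of 0.00194 to 0.99995, and stood at −0.54 to −0.46 without 1 library. The replicate block changed no call of a proteasome gene or of Hnrnpk and added that of Hspa1a.

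Small differences changed sign, none with a call. Psmb5 was −0.015 after quantile normalization, −0.013 after rescaling, −0.0042 with voom, −0.00049 with voom and block and −0.13 with the covariate. Psmd2 was −0.084 after quantile normalization, −0.076 after rescaling, −0.067 with voom (−0.0673 with the block) and −0.017 with the covariate. Psmg2 was −0.0021 after quantile normalization, −0.051 after rescaling, −0.042 with voom, −0.039 with voom and block and −0.067 with the covariate. Nfe2l1 was 0.0095 after median-ratio scaling and 0.070 with the covariate, Psmb7 −0.071 with the covariate, and Psmc3ip 0.010 and Psme2b 0.042 with replicates 2 and 3 alone. Without 1 library the range was −0.096 to 0.079 for Nfe2l1, −0.11 to 0.40 for Psmb5, −0.076 to 0.51 for Psmb7, −0.11 to 0.076 for Psmc3ip, −0.018 to 0.11 for Psmd2, −0.020 to 0.50 for Psmd5, −0.17 to 0.032 for Psmd9, −0.37 to 0.22 for Psme2b and −0.047 to 0.24 for Psmg2. Rescaling and voom change the size of a library, which moves every gene of that library by about the same amount. Rescaling also moved the median of all tested genes down. The cause of the moves in the other fits was not tested.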
